A study of Mus musculus with 28 samples.

Results

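RNA levels in CD45+ cells sorted from MC38 tumours were compared between day 18 and day 6 of tumour growth in Nrp1-deleted mice. The comparison rests on 4 of the 28 arrays of the series, 2 from each day, which were taken by their labelled tumour, day and genotype. MC38 is a mouse colon carcinoma line, and CD45 is the surface protein that marks haematopoietic cells. All hosts of the series carried Foxp3Cre-YFP, a Cre recombinase and yellow fluorescent protein expressed from Foxp3, the gene that defines regulatory T cells. The Nrp1-deleted hosts were labelled Nrp1L/LFoxp3Cre-YFP and so also carried floxed Nrp1, which Cre removes in cells that express Foxp3. The control hosts were labelled Foxp3Cre-YFP, with Nrp1 intact, and 4 arrays of control hosts from the same days of MC38 growth are used beside them. Nrp1 encodes neuropilin-1, a co-receptor for semaphorins and vascular endothelial growth factors. Age, sex and strain background of the mice are not given in the sources used here. Whether the 2 replicates of a group are different mice is not labelled, and the tests therefore rest on array-to-array spread that could be technical.

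CD45+ cells of a tumour are a mixture of macrophages, monocytes, dendritic cells, granulocytes and lymphocytes, and a bulk array gives the sum over all of them. Type 2 immunity is the branch driven by interleukins 4, 5 and 13: interleukin 5 sustains eosinophils, interleukin 13 and interleukin 4 act on macrophages through the factor STAT6, and such macrophages make chemokines that attract eosinophils and T helper 2 cells. Macrophages of tumours can also receive colony-stimulating and TGF-beta signals.

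Of 17097 genes tested with limma, 332 passed an adjusted p of 0.05 between the days in Nrp1-deleted hosts (1.94%), and 204 of them were higher at day 18 (1.19%) while 128 were lower (0.749%). A change of at least 1 on the log2 scale was found for 161 of the 332, with 94 higher and 67 lower. Changes are given as day 18 minus day 6 on the log2 scale, with the standard error of the fit after the ± sign and 2 arrays on each day. The median change over all genes was 0.02, and 53.4% of genes had a change above 0. The 4 arrays gave similar value distributions, with means of 4.83 to 4.84. The day 6 replicates stood further apart (r = 0.9879, 278 genes at least 2-fold apart) than the day 18 replicates (r = 0.9934, 87 genes) or the control pairs (99 genes at day 6 and 21 at day 18). Replicate 1 of day 6 was higher for macrophage genes (mean of 16 measured genes 10.75 against 10.35) and replicate 2 for T cell genes (mean of 18 genes 8.39 against 7.60). The count of called genes depended on single arrays: it was 981 without day 6 replicate 1, 95 without day 6 replicate 2, 166 without day 18 replicate 1 and 77 without day 18 replicate 2. A set of 53 genes was called with all arrays and without each of the 4. On day 18 replicate 1, the Y-linked gene Eif2s3y was at 6.47, against 8.74 on its replicate and 8.78 and 8.99 at day 6. The other Y-linked genes measured did not share that gap (Kdm5d 5.11 against 5.50, Uty 4.91 against 4.49), and Xist was at most 3.36 on all 4 arrays.

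The sort marker Ptprc, which encodes CD45, was at 12.34 and 12.27 on the day 6 arrays and 12.34 and 12.30 at day 18, a change of 0.02 ± 0.09. None of 11 pan-leukocyte genes was called. Nrp1 itself was at 8.93 and 7.97 at day 6 and 9.26 and 9.36 at day 18. It rose by 0.86 ± 0.23 (adjusted p = 0.0469), but the change was 0.38 (adjusted p = 0.761) without day 6 replicate 2, and the call was also lost without either day 18 array. Of 12 other settings of the fit and the scaling, 4 kept the call, and the adjusted p in the fit on the 4 arrays alone was 0.305. Since Nrp1 is removed in regulatory T cells alone and Foxp3 was at 2.87 to 3.21, the level of Nrp1 in the whole sort does not check the deletion.

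Chemokine and lectin genes known from alternatively activated macrophages stood at the head of the falls. Ccl24 encodes eotaxin-2, a chemokine for eosinophils. It was at 11.67 and 11.54 at day 6 and at 5.71 and 4.96 at day 18. The days did not overlap, and the fall of 6.27 ± 0.72 corresponds to 77.2-fold (adjusted p = 1.65e-05). Mgl2 encodes CD301b, a galactose-type lectin of macrophages and dendritic cells. Its values of 9.10 and 8.86 at day 6 became 4.84 and 4.65 at day 18, 18.8-fold lower (change -4.23 ± 0.63, adjusted p = 0.00046). Its relative Clec10a, which encodes CD301a, was at 8.01 and 7.91 and then at 6.30 and 5.69, also without overlap (-1.97 ± 0.50, adjusted p = 0.0385). The Clec10a call was lost without any 1 of the 4 arrays, with adjusted p from 0.0763 to 0.376. Cbr2, a carbonyl reductase gene typical of resident macrophages, fell from 7.47 and 7.75 to 4.20 and 3.38 (-3.82 ± 0.69, adjusted p = 0.00273). Here the adjusted p was 0.0532 without day 6 replicate 2 and 0.0818 without day 18 replicate 2. Ccl24 and Mgl2 kept their calls without each array.

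Further chemokine genes fell. Ccl8 encodes a chemokine that in the mouse acts on CCR8. It was among the brightest genes at day 6, at 11.71 and 12.73, and was at 8.98 and 9.40 at day 18 (-3.03 ± 0.46, 8.19-fold, adjusted p = 0.000493). Ccl17 and Ccl22 encode the ligands of CCR4, a receptor of T helper 2 and regulatory T cells. Ccl17 was at 8.52 and 8.74 at day 6 and at 6.22 and 4.82 at day 18, so its day 18 arrays differed from each other by more than its day 6 arrays. Its change of -3.11 ± 0.62 (adjusted p = 0.00721) was no longer called without day 6 replicate 2 (adjusted p = 0.0981) or day 18 replicate 2 (adjusted p = 0.206). Ccl22 went from 7.35 and 8.12 to 6.43 and 5.61 (-1.71 ± 0.43, adjusted p = 0.0343), and its adjusted p was 0.457 and 0.424 without those same arrays. The fixed list of CC chemokine and related genes does not hold Ccl17 or Ccl22. Of its 14 measured genes, 3 fell (Ccl24, Ccl8 and Csf2), against 0.749% of all genes, and none rose. Csf2 is not a chemokine gene and is counted again in the T helper cytokine list below. The monocyte chemokine genes Ccl2 and Ccl7 had changes of -0.33 ± 0.38 and -0.35 ± 0.48 and were not called.

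The list of 19 measured tissue-repair macrophage genes had a median change of -0.76, and 17 had a change below 0. Called as lower were 3 (Mgl2, Cbr2 and Clec10a), against 0.749% of all genes, and none was called as higher. Mgl2 and Clec10a also stand in the type 2 dendritic cell list. The mean of the list was 7.65 and 7.74 on the day 6 arrays and 6.77 and 6.52 on the day 18 arrays. Several members had large changes that missed the threshold. Mrc1, the mannose receptor CD206, was at 11.26 and 10.76 and then at 9.81 and 9.16 (-1.52 ± 0.59, adjusted p = 0.229). Retnla, a secreted product of STAT6 signalling, was at 5.75 and 7.0 and then at 3.36 and 4.78 (-2.31 ± 0.80, adjusted p = 0.162). Folr2, a folate receptor of resident macrophages, was at 8.05 and 7.53 and then at 5.86 and 6.61 (-1.55 ± 0.45, adjusted p = 0.080). The days did not overlap for any of these. Of the 19 genes, 11 were lower at day 18 without overlap and 1 was higher, against 18% and 21.9% of all genes. Arg1, arginase 1, stayed among the brightest genes at 13.62 and 13.57 at day 6 and 12.84 on each day 18 array (-0.76 ± 0.53, adjusted p = 0.632).

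Eosinophil genes were lower at day 18. Of 7 measured, 4 fell, against 0.749% of all genes, none rose, and the median change was -1.04. Alox15 encodes 12/15-lipoxygenase of eosinophils and resident macrophages and was at 5.82 and 5.98 at day 6 and 3.09 and 3.01 at day 18 (-2.85 ± 0.36, adjusted p = 6.07e-05). Siglecf, the sialic-acid-binding lectin used to identify mouse eosinophils, was at 5.33 and 4.98 and then at 3.08 and 3.52 (-1.85 ± 0.34, adjusted p = 0.00368). Ccr3, the eotaxin receptor, was at 3.95 and 3.28 and then at 2.46 and 2.39 (-1.19 ± 0.20, adjusted p = 0.0018). The granule protein gene Prg2 was at 3.42 and 4.24 and then at 2.93 and 2.64 (-1.04 ± 0.21, adjusted p = 0.00719). None of these overlapped between days, and 18% of all genes were lower at day 18 without overlap. Leaving out 1 array ended the call of Siglecf without day 18 replicate 1 (adjusted p = 0.0685) and of Prg2 without day 6 replicate 2 (adjusted p = 0.279) or day 18 replicate 2 (adjusted p = 0.153). Alox15 and Ccr3 were called without each array, but in a fit on the 4 Nrp1-deleted arrays alone, which has 2 residual degrees of freedom, Ccr3 (adjusted p = 0.0632) and Prg2 (adjusted p = 0.195) were not called. The remaining eosinophil genes, Il5ra, Epx and Prg3, lay between 2.47 and 3.11 on all 4 arrays, among the low values of the array, and were not called. The median of all gene values on the 4 arrays was 4.55, no detection call came with the values, and a gene read near 3 may not have been detected. In this bulk sort, fewer cells of a type and less RNA per cell cannot be told apart.

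T helper cytokine genes formed the other list with a median of -1.04. Of 11 measured, 4 fell (Csf2, Il13, Il5 and Il3), against 0.749% of all genes, and none rose. For 9, the days did not overlap and day 18 was lower, against 18% of all genes. Csf2, the gene of the myeloid growth factor GM-CSF, was at 7.39 and 8.38 at day 6 and 6.05 and 5.46 at day 18 (-2.13 ± 0.33, 4.38-fold, adjusted p = 0.000634). Il13 was at 5.14 and 5.81 and then at 3.92 and 3.71 (-1.66 ± 0.24, adjusted p = 0.000385). Il5 was at 4.22 and 4.67 and then at 2.96 and 3.07 (-1.43 ± 0.22, adjusted p = 0.000577). These 3 genes were higher on each day 6 array than on either day 18 array and were called without each array. In the fit on the 4 arrays alone Il13 was at adjusted p = 0.0524. Il3, a growth factor of mast cells and basophils, was at 5.03 and 3.65 and then at 2.94 and 2.75 (-1.49 ± 0.29, adjusted p = 0.0062). Its change was -0.80 (adjusted p = 0.0753) without day 6 replicate 1 and -2.18 without day 6 replicate 2, and the adjusted p was 0.105 without day 18 replicate 2. It was also lost after quantile normalization of the 8 MC38 arrays (adjusted p = 0.0654), in a fit on those 8 (0.0571) and in the fit on 4 (0.203). Il4 was at 4.68 on each day 6 array and at 3.97 and 3.83 at day 18. Its days did not overlap, but its standard error over the 12 groups was wide (-0.78 ± 0.74, adjusted p = 0.761). Il17a was at 7.38 and 8.46 and then at 6.21 and 6.36 (-1.63 ± 0.79, adjusted p = 0.39). Il10 overlapped between days (6.77 and 8.42, then 7.0 and 7.49).

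**Figure D1:**
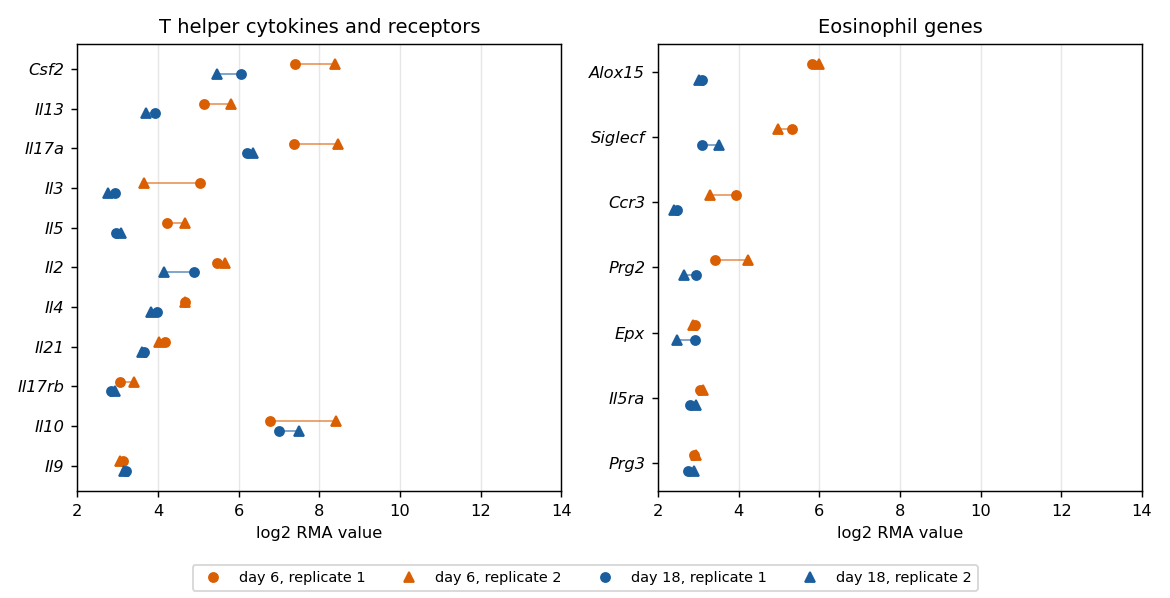
Values on the 4 arrays of Nrp1-deleted hosts (x axis, log2 RMA value) for the 11 measured T helper cytokine and receptor genes (left) and the 7 measured eosinophil genes (right). Circles are replicate 1 and triangles replicate 2, orange for day 6 and blue for day 18, and a thin line joins the replicates of a day. Csf2 lay at 7.39 and 8.38 at day 6 and at 6.05 and 5.46 at day 18, and Il10 is the cytokine gene whose days overlap.

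The cytokine genes that fell lie in one stretch of mouse chromosome 11, the T helper 2 cytokine locus and its neighbours. From Il4 to Il3 the RefSeq annotation holds 12 protein-coding genes, all 12 measured. Of these, 4 fell (Il13, Il5, Csf2 and Il3) and 1 rose, against 0.749% and 1.19% of all genes. The 4 are those already counted in the T helper cytokine list. The stretch was bounded after the values were seen, so its count cannot show whether falls cluster there. The riser was P4ha2, a subunit of collagen prolyl hydroxylase, with a change of 1.62 (adjusted p = 0.00166). The other 7, among them Il4, Rad50 and Irf1, had changes between -0.78 and 0.50 and were not called. The promoters of the 4 cytokine genes are shown because these neighbours fell together. Each sequence runs 5′ to 3′ on the gene's strand, from 250 bases before to 50 bases after the annotated start (RefSeq, GRCm38.p6). The windows are chr11:53634653-53634952 on the minus strand for Il13 and chr11:53720544-53720843 on the plus strand for Il5. They are chr11:54249850-54250149 and chr11:54267230-54267529, both on the minus strand, for Csf2 and Il3. Capitals mark matches to TTC and GAA separated by any 4 bases, the palindromic spacing known for STAT6, which reads the same on both strands. The motif was chosen after the values were seen.
Il13: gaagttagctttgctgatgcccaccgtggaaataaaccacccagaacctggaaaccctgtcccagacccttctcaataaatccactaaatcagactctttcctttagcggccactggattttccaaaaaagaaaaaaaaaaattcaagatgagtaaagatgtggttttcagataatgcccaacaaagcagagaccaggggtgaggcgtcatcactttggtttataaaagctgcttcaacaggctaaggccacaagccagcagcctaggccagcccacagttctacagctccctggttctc
Il5: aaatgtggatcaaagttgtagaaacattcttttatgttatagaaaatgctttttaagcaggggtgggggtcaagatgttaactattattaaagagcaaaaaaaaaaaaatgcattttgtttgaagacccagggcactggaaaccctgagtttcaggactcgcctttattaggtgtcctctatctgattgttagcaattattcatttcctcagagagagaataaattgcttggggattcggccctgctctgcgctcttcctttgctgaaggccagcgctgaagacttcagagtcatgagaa
Csf2: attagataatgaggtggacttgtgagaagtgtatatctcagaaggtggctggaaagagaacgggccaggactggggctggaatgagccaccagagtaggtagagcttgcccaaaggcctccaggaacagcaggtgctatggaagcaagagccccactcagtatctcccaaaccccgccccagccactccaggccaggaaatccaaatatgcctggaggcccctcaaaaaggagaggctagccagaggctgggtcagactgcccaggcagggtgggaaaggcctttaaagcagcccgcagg
Il3: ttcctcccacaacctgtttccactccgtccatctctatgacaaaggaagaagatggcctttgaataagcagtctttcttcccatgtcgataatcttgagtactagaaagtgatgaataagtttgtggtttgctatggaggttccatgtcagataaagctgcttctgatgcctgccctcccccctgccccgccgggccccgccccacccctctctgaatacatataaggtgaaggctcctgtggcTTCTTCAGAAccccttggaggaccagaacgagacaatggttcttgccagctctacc
The Il3 promoter holds 1 match, TTCTTCAGAA, which begins 6 bases before the start, and the other 3 hold none in this window.

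Among the 15 genes that fell furthest, 12 had a promoter in the RefSeq table, with 13 promoters, and 3 of these (23.1%) held the motif. Among the 15 largest rises, 11 genes with 17 promoters were found, and 2 promoters (11.8%), both of Tnfsf13b and overlapping each other, held it. Of all 32851 promoters, 2284 (6.95%) did. A match describes letters only and is not a site. The 3 promoters among the 15 falls belong to Ccl17 (chr8:94810203-94810502, plus strand, match 154 bases before the start), Cbr2 (chr11:120731972-120732271, minus strand, match 24 bases after it) and Tfec (chr6:16898392-16898691, minus strand, match 200 bases before the start). Il3 is not among the 15. Those of Ccl17 and Cbr2 are shown because both genes are described above as falling.
Ccl17: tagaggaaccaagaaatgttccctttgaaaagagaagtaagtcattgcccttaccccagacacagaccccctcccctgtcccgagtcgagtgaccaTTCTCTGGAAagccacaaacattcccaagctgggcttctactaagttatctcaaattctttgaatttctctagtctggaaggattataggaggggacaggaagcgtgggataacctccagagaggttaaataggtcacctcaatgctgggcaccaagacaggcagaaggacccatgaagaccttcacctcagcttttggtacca
Cbr2: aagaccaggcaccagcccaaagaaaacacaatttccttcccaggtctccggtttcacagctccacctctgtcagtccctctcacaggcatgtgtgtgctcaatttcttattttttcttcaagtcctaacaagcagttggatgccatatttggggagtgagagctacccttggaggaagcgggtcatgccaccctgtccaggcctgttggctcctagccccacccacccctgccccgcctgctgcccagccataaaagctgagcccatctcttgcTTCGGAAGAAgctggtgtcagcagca
Il13, Il5, Csf2, Il3, Ccl17 and Cbr2 were taken because they fell, so their falls cannot show whether the motif matters. A part of the motif in these falls was not tested.

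**Figure D2:**
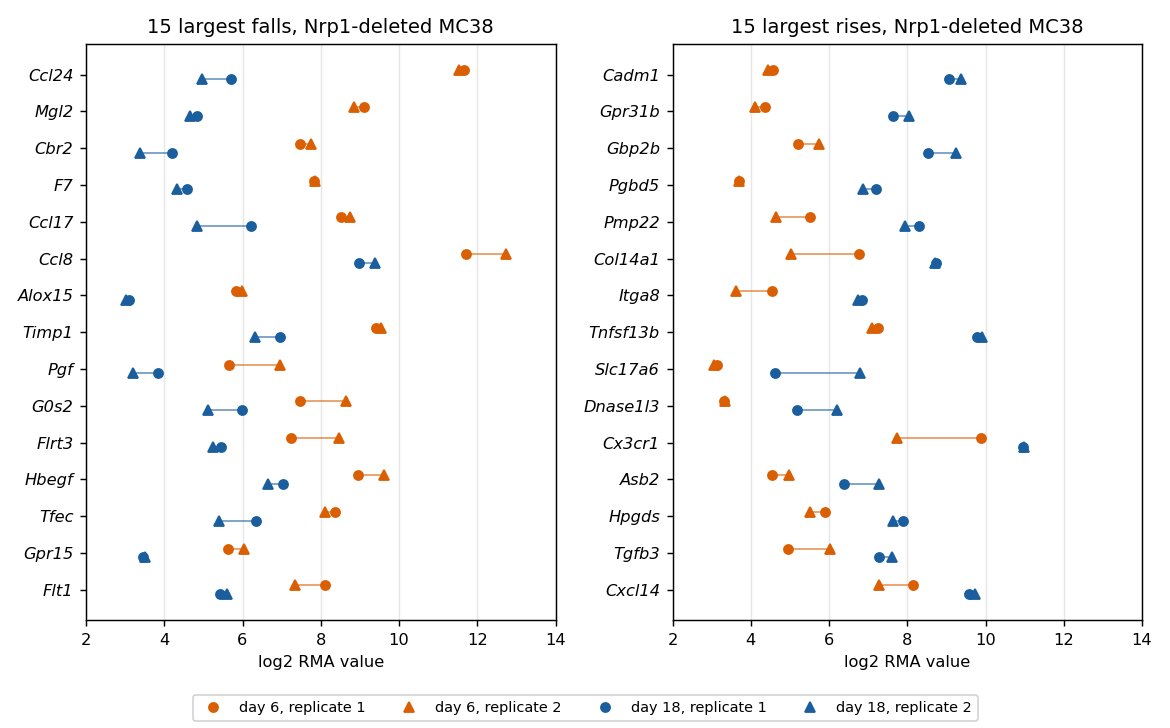
Values on the 4 arrays of Nrp1-deleted hosts (x axis, log2 RMA value) for the 15 largest falls (left) and 15 largest rises (right) among called genes. Circles are replicate 1 and triangles replicate 2, orange for day 6 and blue for day 18, and a thin line joins the replicates of a day. The days overlap for none of these genes, as the naming rule required, and the day 6 replicates of Cx3cr1 (9.89 and 7.74) and Col14a1 (6.77 and 5.03) stand far apart.

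Other genes among the 15 largest falls act in coagulation, vessel growth and matrix turnover. F7 encodes coagulation factor VII, which macrophages can make. It was at 7.83 and 7.86 and then at 4.58 and 4.33 (-3.39 ± 0.33, 10.5-fold, adjusted p = 2.58e-06). Pgf encodes placental growth factor and Flt1 its receptor VEGFR1. Pgf was at 5.65 and 6.97 and then at 3.83 and 3.20 (-2.79 ± 0.39, adjusted p = 0.000229), and Flt1 was at 8.10 and 7.33 and then at 5.43 and 5.59 (-2.20 ± 0.31, adjusted p = 0.000241). Timp1, the secreted inhibitor of matrix metalloproteinases, was at 9.41 and 9.53 and then at 6.96 and 6.32 (-2.83 ± 0.41, adjusted p = 0.000385). These 4 genes were called without each array, and their days did not overlap, as the naming rule required. Hbegf, a heparin-binding ligand of the epidermal growth factor receptor, was at 8.95 and 9.62 and then at 7.02 and 6.66 (-2.45 ± 0.41, adjusted p = 0.0013). It was at adjusted p = 0.0571 without day 6 replicate 2. Tfec, a transcription factor gene of the MiT family expressed in macrophages, was at 8.37 and 8.11 and then at 6.34 and 5.39 (-2.38 ± 0.36, adjusted p = 0.00046). The last of the 15 falls were Gpr15, a homing receptor gene (-2.36 ± 0.40), G0s2, an inhibitor of triglyceride lipase (-2.51 ± 0.51), and Flrt3, a membrane protein gene (-2.50 ± 0.64). Gpr15 missed the threshold without day 6 replicate 2 (adjusted p = 0.0513), G0s2 without replicate 2 of day 6 (adjusted p = 0.227) or day 18 (adjusted p = 0.183), and Flrt3 without any array but day 6 replicate 1 (adjusted p from 0.15 to 0.5).

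In the list of neuropilins, semaphorins and plexins, 3 of 17 measured genes fell and 1 rose, with a median of -0.12. Beside Flt1, the semaphorin gene Sema7a was at 6.69 and 7.81 and then at 5.83 and 5.80 (-1.44 ± 0.29, adjusted p = 0.00754). The plexin gene Plxnd1 was at 8.08 and 7.89 and then at 7.23 and 6.68 (-1.03 ± 0.21, adjusted p = 0.0105). Nrp1 was the member that rose, with the limits given above. Sema7a was called without day 6 replicate 1 alone among the single-array omissions, and Plxnd1 was not called without replicate 2 of either day (adjusted p of 0.0571 for day 6 and 0.277 for day 18). In the fit on the 4 arrays alone both were lost (adjusted p of 0.144 and 0.104), and with the mean over probe sets Sema7a was at -0.92 (adjusted p = 0.0667).

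The largest rise was in Cadm1, an adhesion molecule gene best known as a marker of type 1 dendritic cells. It was at 4.56 and 4.44 at day 6 and 9.08 and 9.38 at day 18. The change of 4.73 ± 0.27 corresponds to 26.5-fold (adjusted p = 2.05e-10), and the 3 other probe sets of the gene changed by 3.30 to 5.29. No other type 1 dendritic cell gene was called as higher. Of 13 measured, 5 had changes above 0, Cadm1 among them, and 8 below 0, with a median of -0.33. Btla and Cd24a were called as lower. Xcr1, the chemokine receptor that defines these cells, was at 3.28 and 3.52 and then at 4.11 and 5.48 (1.39 ± 0.51, adjusted p = 0.201). Flt3, the growth factor receptor of dendritic cells, was at 6.66 and 6.58 and then at 5.82 and 4.71 (-1.36 ± 0.42, adjusted p = 0.100). Cd24a was at 10.67 and 10.75 and then at 9.21 and 8.81 (-1.70 ± 0.42, adjusted p = 0.0327), a call lost without any 1 array. Btla was at 7.11 and 7.14 and then at 6.34 and 5.62 (-1.15 ± 0.24, adjusted p = 0.00915), and was not called without replicate 2 of either day (adjusted p of 0.0995 for day 6 and 0.285 for day 18) or in the fit on the 4 arrays alone (0.131).

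Of 13 measured genes of mature dendritic cells, 4 fell (Ccl17, Ccl22, Fscn1 and Socs2), against 0.749% of all genes, and none rose. Fscn1, the actin-bundling protein of mature dendritic cells, was at 10.58 and 10.89 and then at 9.52 and 9.17 (-1.39 ± 0.29, adjusted p = 0.00915). Socs2, a feedback inhibitor of cytokine signalling, was at 8.56 and 9.10 and then at 7.44 and 7.21 (-1.50 ± 0.25, adjusted p = 0.00115). Neither overlapped between days. Fscn1 was not called without replicate 2 of either day (adjusted p of 0.169 and 0.167), and Socs2 was not called without day 6 replicate 2 (adjusted p = 0.0602). With the mean over probe sets the changes were smaller, -0.83 for Fscn1 and -0.85 for Socs2.

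Cx3cr1 and Itgax were the macrophage and microglia-like genes that rose. Cx3cr1, the fractalkine receptor of resident macrophages, was at 9.89 and 7.74 at day 6 and at 10.95 and 10.99 at day 18 (2.16 ± 0.37, adjusted p = 0.00152). Its size turned on the day 6 arrays: the change was 3.24 without day 6 replicate 1 and 1.08 without day 6 replicate 2. The call was lost in the fit on the 4 arrays alone (adjusted p = 0.18). Of 16 macrophage identity genes, Cx3cr1 alone was called, 12 had a change above 0, and 9 had days that did not overlap with day 18 higher, against 21.9% of all genes. C1qc, a complement subunit gene, was at 11.65 and 11.58 and then at 12.33 and 12.35 (0.73 ± 0.34, adjusted p = 0.364). Adgre1, which encodes the antigen F4/80, overlapped between days (10.62 and 9.92, then 10.81 and 10.48). The microglia-like list had a median of 0.52, with 12 of 13 genes above 0 and 1 called. That gene was Itgax, which encodes CD11c and was at 8.07 and 7.65 and then at 8.99 and 9.31 (1.29 ± 0.24, adjusted p = 0.00339, and 0.110 and 0.0985 without replicate 2 of day 6 and day 18).

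Several of the rises with the smallest adjusted p encode secreted or membrane proteins. Tnfsf13b encodes BAFF, the survival factor of B cells made by myeloid cells. It was at 7.24 and 7.09 and then at 9.79 and 9.92 (2.68 ± 0.28, 6.43-fold, adjusted p = 5.02e-06). Gpr31b, a G-protein-coupled receptor gene, was at 4.37 and 4.10 and then at 7.63 and 8.04 (3.60 ± 0.35, adjusted p = 2.58e-06). Cd81, a tetraspanin gene named here after its values were seen, was at 9.65 and 9.15 and then at 11.14 and 11.35 (1.84 ± 0.21, adjusted p = 1.65e-05). Each of these 3 was higher on both day 18 arrays and was called without each array. Hpgds, the haematopoietic prostaglandin D synthase, was at 5.90 and 5.52 and then at 7.89 and 7.62 (2.04 ± 0.26, adjusted p = 9.41e-05). Cxcl14, a chemokine gene, was at 8.13 and 7.27 and then at 9.57 and 9.73 (1.95 ± 0.26, adjusted p = 0.000129). Lipa, the lysosomal acid lipase that frees cholesterol from its esters, was at 8.01 and 7.43 and then at 8.96 and 9.03 (1.28 ± 0.13, adjusted p = 5.02e-06). Cd72, a lectin of B cells that macrophages also express, was at 9.54 and 9.58 and then at 11.14 and 11.22 (1.62 ± 0.26, adjusted p = 0.000803). It was the 1 of 13 B cell genes to rise, and none fell. The days did not overlap for any of the genes in this paragraph, which the naming rule required of Tnfsf13b, Gpr31b, Hpgds and Cxcl14.

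The other rises included an interferon-inducible gene and genes with low day 6 values. Gbp2b, an interferon-inducible GTPase gene, was at 5.21 and 5.73 and then at 8.52 and 9.26 (3.41 ± 0.59, 10.7-fold, adjusted p = 0.00186, and 0.0694 without day 18 replicate 2). Other interferon-inducible GTPases did not pass the test: none of 12 listed was called and 10 had changes below 0. Pgbd5, a transposase-derived gene, was at 3.69 on both day 6 arrays and at 7.19 and 6.88 at day 18 (3.34 ± 0.35, adjusted p = 5.02e-06). Dnase1l3, a secreted DNase of myeloid cells, was at 3.30 and 3.34 and then at 5.19 and 6.19 (2.37 ± 0.45, adjusted p = 0.004). It was not called without replicate 2 of either day (adjusted p of 0.0532 for day 6 and 0.148 for day 18). Slc17a6, a vesicular glutamate transporter gene, was at 3.13 and 3.06 and then at 4.61 and 6.79, so the day 18 arrays lay over 2 log2 units apart (2.60 ± 0.60, adjusted p = 0.0217). Its change was 3.69 without day 18 replicate 1 and 1.51 (adjusted p = 0.479) without day 18 replicate 2, and the adjusted p was 0.185 without day 6 replicate 2 and 0.128 in the fit on the 4 arrays alone. Asb2, a ubiquitin ligase subunit gene, rose by 2.07 ± 0.34 (adjusted p = 0.00103, and 0.0699 without day 18 replicate 2).

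Of 14 measured TGF-beta genes, 3 rose, against 1.19% of all genes, none fell, and the median was 0.26. Tgfb3, a TGF-beta ligand, was at 4.95 and 6.03 and then at 7.27 and 7.60 (1.95 ± 0.37, adjusted p = 0.00403, and 0.0933 without day 18 replicate 2). The signalling receptor gene Tgfbr1 was at 9.33 and 8.63 and then at 10.33 and 10.24 (1.30 ± 0.20, adjusted p = 0.000608). Its partner Tgfbr2 was at 9.70 and 9.45 and then at 10.29 and 10.22 (0.69 ± 0.11, adjusted p = 0.000858). Both receptors were called without each array, but another probe set of Tgfbr2, the one with the highest variance, changed by -0.15 (adjusted p = 0.913). With the mean over probe sets Tgfbr2 changed by 0.13 (adjusted p = 0.795) and Tgfbr1 by 0.85, and in the fit on the 4 arrays alone Tgfbr2 was at adjusted p = 0.0706 and Tgfb3 at 0.0528. Itga8, an integrin subunit gene, was at 4.55 and 3.63 and then at 6.85 and 6.74 (2.71 ± 0.34, adjusted p = 6.36e-05), and its dimmer probe set changed by 0.41, which gave 1.56 with the mean over both. Ltbp3, which binds latent TGF-beta, was at 4.63 and 3.83 and then at 5.0 and 5.72 (1.13 ± 0.32, adjusted p = 0.0655).

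Some genes typical of fibroblasts, cells that lack CD45, rose at day 18 in these hosts. Col14a1, a fibril-associated collagen gene, was at 6.77 and 5.03 and then at 8.74 and 8.72 (2.83 ± 0.36, adjusted p = 6.89e-05). The change was 3.70 without day 6 replicate 1 and 1.96 without day 6 replicate 2, and the gene's other probe sets changed by 1.88 and 0.14. With the mean over probe sets Col14a1 changed by 1.62. Pmp22, a membrane protein gene of Schwann cells and fibroblasts, was at 5.50 and 4.63 and then at 8.29 and 7.95 (3.05 ± 0.42, adjusted p = 0.000239). In the fixed fibroblast list, 3 of 19 measured genes rose (Serpinf1, Dcn and Col5a1), against 1.19% of all genes. None fell, and the median was 0.29. Dcn, the matrix proteoglycan decorin, was at 5.84 and 6.37 and then at 6.94 and 7.84 (1.29 ± 0.30, adjusted p = 0.0205). It was not called without replicate 1 of day 6 (adjusted p = 0.0981) or replicate 2 of day 18 (adjusted p = 0.433). Serpinf1 rose by 1.38 ± 0.29 and Col5a1 by 1.35 ± 0.32, but with the mean over probe sets the Col5a1 change was 0.38 (adjusted p = 0.442). All 3 were lost in the fit on the 4 arrays alone (adjusted p of 0.101 for Serpinf1, 0.102 for Col5a1 and 0.17 for Dcn). Serpinf1 was not called without day 6 replicate 1 or day 18 replicate 2 (adjusted p of 0.0664 and 0.243), and Col5a1 was called without day 18 replicate 1 alone among the single omissions. The mean of the list was 4.36 and 4.64 at day 6 and 4.86 and 5.12 at day 18, and in control hosts it was higher throughout, at 6.41 and 5.79 and then 6.27 and 6.21. Col1a1, a defining member, was between 3.61 and 4.13 on all 4 arrays. The part of such cells in the rises of Col14a1, Pmp22, Cxcl14, Itga8, Tgfb3 and P4ha2 was not tested.

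Genes typical of other cells were also read. Of 12 epithelial and carcinoma genes, Cdh1 and Krt18 fell, against 0.749% of all genes, and none rose. The list means were 3.84 and 3.90 at day 6 and 3.55 and 3.62 at day 18. Cdh1 was at 9.91 and 9.28 and then at 7.89 and 7.62 (-1.84 ± 0.48, adjusted p = 0.0491), and Epcam lay between 3.65 and 4.76 on all 4 arrays. Cdh1 thus stood far above the list means, and which cells gave its signal was not tested. The Cdh1 and Krt18 calls were lost without any 1 array. No gene of the 12 endothelial, 11 melanocytic or 8 erythroid and platelet genes was called, against 1.94% of all genes. The haemoglobin gene Hba-a1 varied widely, at 7.16 and 6.17 and then at 10.63 and 8.15 (2.73 ± 1.00, adjusted p = 0.201). Of 14 mast cell and basophil genes, Tpsab1 alone rose, against 1.19% of all genes. It went from 3.25 and 3.55 to 4.87 and 4.41 (1.24 ± 0.31, adjusted p = 0.0323), and its call was lost without any 1 array. The median of those 14 genes was 0.41, with 10 above 0.

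Lymphocyte genes gave few calls, as did genes as a whole. None of 18 T cell genes, 16 cytotoxic genes or 12 NK cell genes was called, against 1.94% of all genes. At that share, lists of this size hold few or no calls, so the absence of calls says little about lymphocytes. The medians were -0.30, 0.03 and 0.04. Of the 18 T cell genes, 14 had changes below 0 and 4 above, while 53.4% of all genes had a change above 0. Cd8a was at 7.78 and 8.64 and then at 8.91 and 10, without overlap, but its change of 1.24 ± 0.46 did not pass the test (adjusted p = 0.206). That was the highest change among 9 measured T cell coreceptor and factor genes, of which 7 were below 0 and 2 above. Cd3e overlapped between days (7.90 and 8.31, then 8.14 and 8.66). The cytotoxic granule gene Gzmf was at 6.6 and 8.20 and then at 8.93 and 10.50 (2.31 ± 1.11, adjusted p = 0.387). Ifng was at 9.96 and 10.68 and then at 9.63 and 9.88 (-0.56 ± 0.42, adjusted p = 0.656). Among 12 measured T cell inhibitory receptor and Tox genes, Btla alone was called, as lower, with the limits given above. Of 12 regulatory T cell genes, Nrp1 alone was called, with the limits given above. Il2ra, the interleukin 2 receptor alpha chain, was at 6.61 and 7.68 and then at 6.32 and 5.73 (-1.12 ± 0.44, adjusted p = 0.246).

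Monocyte genes were lower, with 11 of 11 changes below 0 and a median of -0.45, and 2 passed the test. Over all genes, 53.4% had a change above 0 and 0.749% were called lower. Ccr2, the receptor that brings monocytes out of the marrow, was at 11.47 and 10.67 and then at 10.23 and 10 (-0.95 ± 0.20, adjusted p = 0.00924). S100a4 fell by 0.55 ± 0.13 (adjusted p = 0.0237). Ccr2 was not called without day 6 replicate 1 (adjusted p = 0.106) or day 18 replicate 2 (adjusted p = 0.166), and S100a4 was called without day 18 replicate 1 alone among the single omissions. Both were lost in the fit on the 4 arrays alone (adjusted p of 0.155 and 0.136), and the highest-variance probe set of Ccr2 changed by -1.98. Neutrophil genes had a median of -0.53 over 17 genes with none called. All 17 type I interferon-stimulated genes had changes below 0 (median -0.35), and Oas2 alone fell, from 7.64 and 7.79 to 6.87 and 7.04 (-0.76 ± 0.18, adjusted p = 0.0204). Its call held without day 6 replicate 1 and was lost without each of the other 3 arrays and in the fit on the 4 arrays alone (adjusted p = 0.135). Of 14 interferon gamma chemokine and checkpoint ligand genes, Jak2 and Pdcd1lg2 fell. Pdcd1lg2, which encodes PD-L2, was at 8.74 and 9.11 and then at 7.02 and 7.55 (-1.64 ± 0.32, adjusted p = 0.00505, lost without day 6 replicate 2 or day 18 replicate 1 at 0.116 and 0.0992). Cd274, which encodes PD-L1, was at 10.55 and 11.26 and then at 10.42 and 10.52 (-0.44 ± 0.25, adjusted p = 0.51).

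No cell cycle gene passed the test, but all 19 measured had a change above 0, and 16 had days that did not overlap, against 21.9% of all genes, with a median of 0.62. Cenpe, a kinetochore motor gene, was at 6.38 and 5.92 and then at 6.84 and 7.48 (1.01 ± 0.27, adjusted p = 0.0566). Mki67 was at 8.41 and 8.67 and then at 8.83 and 9.05 (0.40 ± 0.23, adjusted p = 0.494). In metabolism, 15 of 17 cholesterol synthesis genes were below 0 with a median of -0.32, and Mvd alone fell (-0.96 ± 0.20, adjusted p = 0.0112, and 0.118 and 0.251 without replicate 2 of day 6 and day 18). Mylip, which degrades the LDL receptor, rose from 8.42 and 9.12 to 9.82 and 9.90 (1.09 ± 0.26, adjusted p = 0.0245). It was called without day 6 replicate 2 alone among the single omissions. In the fit on the 4 arrays alone Mvd (adjusted p = 0.14) and Mylip (0.0818) were lost. The respiratory chain had a median of 0.09 and 1 of 18 called. None of the 22 genes read for the glycolysis and hypoxia list was called. Among them, Pigq was read in place of Gpi1 and Eno1b in place of Eno1.

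**Figure D3:**
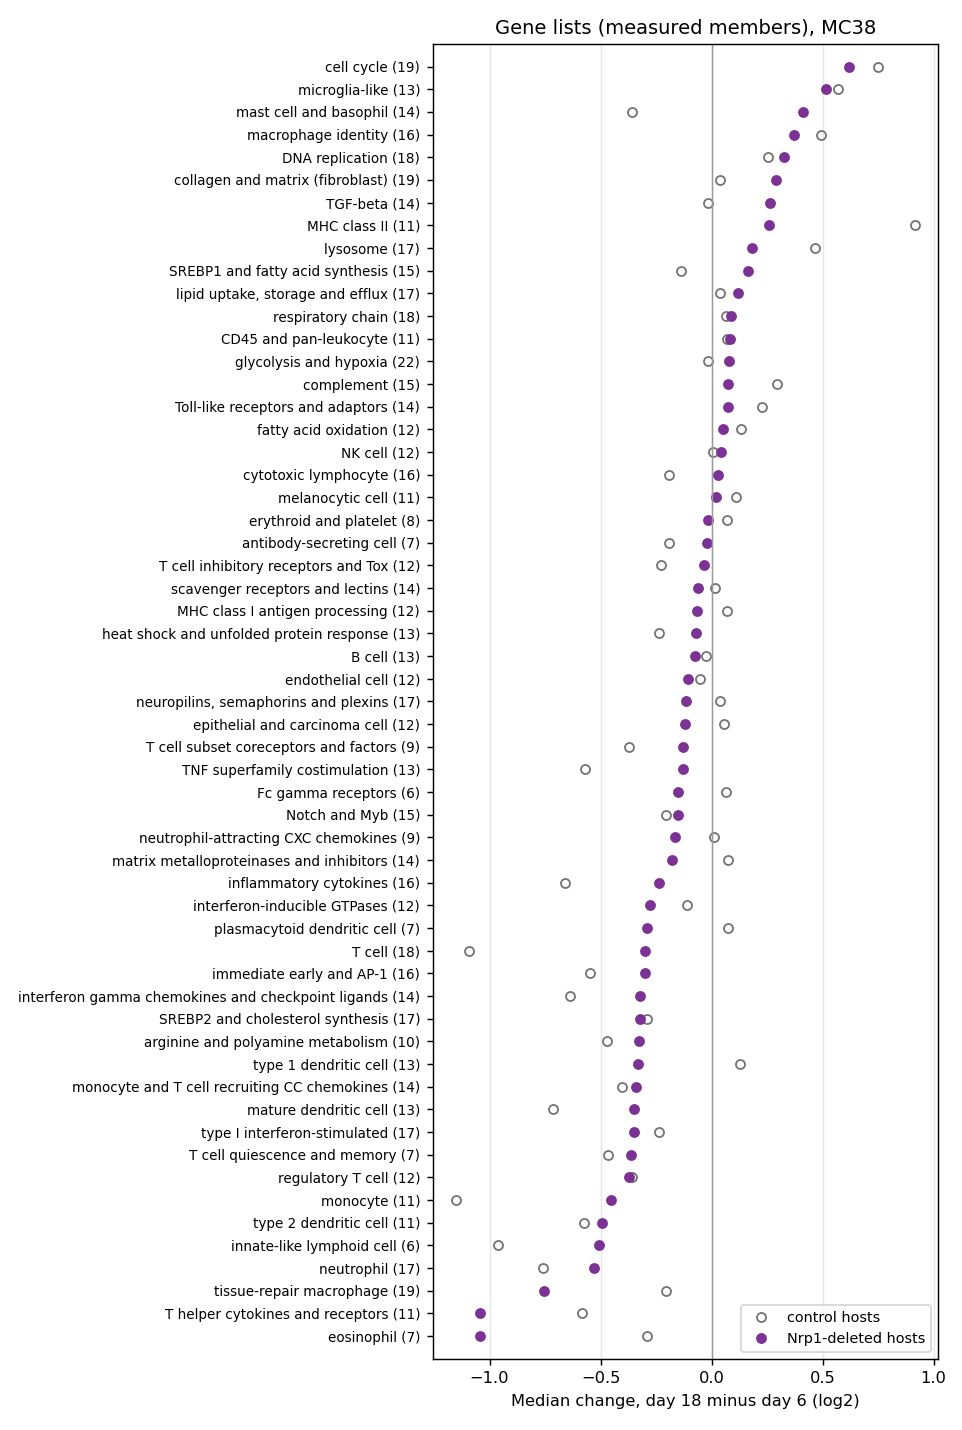
Median change of the measured members of each gene list (x axis, day 18 minus day 6, log2), with the number of members in brackets. Filled points are Nrp1-deleted hosts and open points control hosts. The eosinophil and T helper cytokine lists lie lowest in Nrp1-deleted hosts, both at -1.04, against -0.29 and -0.58 in control hosts, and these differences between hosts were not tested for lists.

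Most changes had the same direction in control hosts over the same days, where 1528 genes were called (8.94%), 752 higher (4.4%) and 776 lower (4.54%). Of the 332 genes called in Nrp1-deleted hosts, 320 had the same sign in control hosts, and 205 were called in both (61.8% of the Nrp1-deleted calls and 13.4% of the control calls), 204 of them in the same direction. Cadm1 was at 5.27 and 5.82 and then at 9.41 and 9.47 in control hosts (change 3.90). Ccl24 was at 8.08 and 9.70 and then at 4.33 and 3.95 (change -4.75), and the difference between its changes was -1.52 ± 1.01 (adjusted p = 0.898). Timp1, Pgf, Alox15 and Gbp2b were also called in control hosts, with changes of -3.21, -2.76, -2.35 and 4.40. Conversely, 7 of 11 MHC class II genes and 6 of 17 lysosome genes rose in control hosts and none in Nrp1-deleted hosts. H2-Eb1 was at 11.89 and 12.15 and then at 12.40 and 12.68 in Nrp1-deleted hosts (0.52 ± 0.27) and changed by 0.96 in control hosts, and the difference of -0.44 ± 0.38 was not called. No MHC class II or lysosome gene was called for a difference between hosts.

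The test of the difference between the changes called 14 genes (0.0819%), 11 above 0 and 3 below. This count rested on single arrays. It was 2 without day 6 Nrp1-deleted replicate 1, 122 without its replicate 2, 0 without day 18 Nrp1-deleted replicate 1 and 1 without its replicate 2. Among control arrays, it was 0 without day 6 replicate 1, 2 without day 6 replicate 2 and 0 without either day 18 array. Ccl8 gave the largest difference. In control hosts it was at 9.91 and 10.84 at day 6 and at 10.58 and 11.07 at day 18 (change 0.45), so it fell in Nrp1-deleted hosts only, and the changes differed by -3.49 ± 0.65 (adjusted p = 0.0282). Slamf6, a lymphocyte adhesion receptor gene, fell from 6.55 and 6.71 to 6.03 and 5.53 in Nrp1-deleted hosts and rose from 5.89 and 6.42 to 7.03 and 6.92 in control hosts (difference -1.68 ± 0.30, adjusted p = 0.0282). Without 1 Nrp1-deleted array, the Slamf6 difference kept its call only when day 6 replicate 2 was the one left out. Cbr2 stayed between 6.40 and 6.87 in control hosts, but the difference of -3.47 ± 0.97 did not pass the test (adjusted p = 0.236), and that of Il5 did not either (-1.35 ± 0.31, adjusted p = 0.115).

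**Figure D4:**
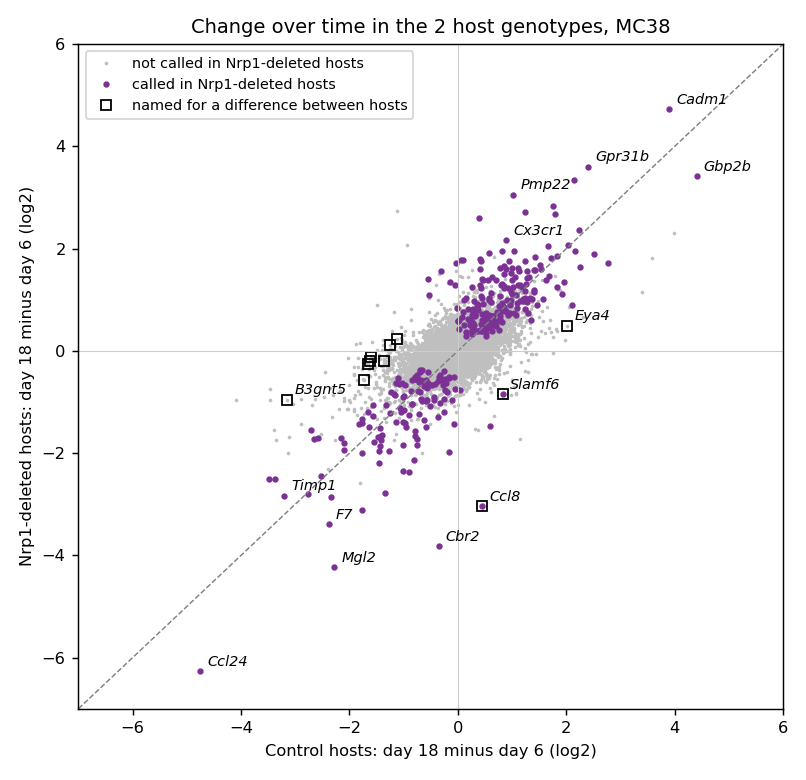
Change from day 6 to day 18 for each of the 17097 genes in control hosts (x axis, log2) and Nrp1-deleted hosts (y axis, log2). Purple points are genes called in Nrp1-deleted hosts, squares the 11 genes named for a difference between hosts, and the dashed line marks equal change. Ccl24 (-6.27 in Nrp1-deleted and -4.75 in control hosts) and Cadm1 (4.73 and 3.90) changed in the same direction in both hosts, and Ccl8 (-3.03 and 0.45) did not.

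The 11 genes above 0 in this test had changes below 0 in control hosts, and none of the 11 was called over time in Nrp1-deleted hosts. Fosl2, an AP-1 factor gene, was at 10.27 and 10.71 and then at 10.40 and 10.18 in Nrp1-deleted hosts, with overlap, and changed by -1.62 in control hosts (difference 1.42 ± 0.26, adjusted p = 0.0282). Nr4a2, an orphan nuclear receptor gene induced by activation, was at 10.16 and 10.55 and then at 10.55 and 10.61 and changed by -1.12 in control hosts (difference 1.35 ± 0.24, adjusted p = 0.0282). B3gnt5, a glycosyltransferase gene, was at 7.46 and 7.96 and then at 6.83 and 6.69, and changed by -3.15 in control hosts (difference 2.20 ± 0.41, adjusted p = 0.0282). The day 6 values of both hosts enter these differences, and the Nrp1-deleted day 6 replicates were the pair furthest apart.

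Arrays of day 12 exist for Nrp1-deleted MC38 hosts, but their value distributions differed from those of days 6 and 18 (root mean square quantile difference of 0.118 to 0.252, against at most 0.071 among the 8 arrays used here). Their levels are therefore given without a test and cannot be set on the same scale. Ccl24 was at 4.17, 5.76 and 3.62 at day 12, and Mgl2 at 3.06, 4.33 and 2.74. Cadm1 was at 8.03, 8.44 and 8.11, and Tnfsf13b at 9.03, 8.91 and 9.25. Pgbd5 was at 5.92, 5.56 and 5.22, and Pmp22 at 6.55, 6.27 and 5.19.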

How the data were processed

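Total RNA of CD45+ cells, sorted from tumours and lysed without culture, was amplified over repeated cycles, labelled with biotin and hybridised to Affymetrix arrays, per the labels' protocols. Repeated amplification can distort the level of rare transcripts. Array values had been put on the log2 scale by the authors before deposit, and the submitters' processing notes name Partek 6.6 and RMA.

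Of 45141 probe sets, 28898 named 1 gene, 551 several and 15588 none in the probe table used, and 104 were control probe sets. By gene ID, 28689 matched RefSeq. Each of 17097 genes is represented by its probe set with the highest mean over 28 arrays (7180 genes had several). No pair of arrays was identical (highest r = 0.9946). The 28 arrays entered one limma fit (limma 3.58.1 in R 4.3.3) of 12 group means. Variances were moderated by empirical Bayes along an intensity trend (16 residual degrees of freedom), and 2-sided p-values were adjusted by Benjamini-Hochberg over all genes, with 0.05 as the threshold. Every adjusted p comes from limma. Exact permutation of 2 arrays against 2 cannot give a p below 0.333. The number of arrays limits the precision. The fit was tested on simulated data.

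The genes named are the 15 largest rises and falls among called genes whose days do not overlap and whose higher mean lies above the median of all values, up to 8 in each direction for the difference between hosts, and list members with the smallest adjusted p or that define the list. Predicted and clone-named genes were passed over. Of 801 genes in 57 lists, 705 were measured. Names absent from the measured genes were matched through synonyms. By this route Gpi1 was read as Pigq, Eno1 as Eno1b and Srebf1 as Tom1l2, so these entries may not measure the listed genes. They enter the counts and medians of the glycolysis and fatty acid synthesis lists. Members, lists and rules were chosen with earlier results of these data known. Promoters of interferon, MHC class II and cell cycle genes were to be searched where most members of a list moved one way. By sign this held, with all 19 cell cycle genes above 0 and all 17 type I interferon-stimulated genes below 0. At most 2 members of any such list passed the test. The planned search was not run, and the cytokine promoters were searched instead, a choice made after the values were seen. Alternatives covered probe set choice, scaling, a filter on dim genes, variance models, the arrays fitted, a replicate block and leaving out each array.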

Additional observations from a re-analysis of the deposited data

Results flagged for a closer look

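The day 18 minus day 6 change differed between Nrp1-deleted and control hosts for 11 named genes, by limma's test of the difference itself (adjusted p from 0.0282 to 0.0335 over all genes). The 14 genes this test called in all are 0.0819% of those tested. The change in Nrp1-deleted hosts was lower than in control hosts for Ccl8 (-3.49), Slamf6 (-1.68) and Eya4 (-1.52). It was higher for B3gnt5 (2.20), Ppp1r10 (1.49), Fosl2 (1.42), Rybp (1.40), Nkrf (1.37), Nr4a2 (1.35), Abl2 (1.16) and Gramd4 (1.15). Ppp1r10, Rybp, Nkrf, Abl2 and Gramd4 changed by between -1.73 and -1.25 in control hosts and by between -0.58 and 0.12 in Nrp1-deleted hosts. Eya4 was at 3.54 and 3.03 and then at 3.80 and 3.75 in Nrp1-deleted hosts and rose from 3.66 and 3.40 to 5.66 and 5.42 in control hosts. These calls rested on single arrays. Of the 8 omissions of 1 array, Slamf6 kept its call in 2 and each of the other 10 genes in 1, the one without day 6 Nrp1-deleted replicate 2. The highest adjusted p over the omissions was 0.128 to 0.281 across the 11 genes, and 0.233 for Ccl8.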

How the results depend on the processing

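The 332 genes called in Nrp1-deleted hosts became 220 with array weights, 121 in a fit on the 4 Nrp1-deleted arrays alone and 161 with a minimum change of 1 on the log2 scale, and ranged from 77 to 981 when 1 array was left out. The other alternatives gave 266 to 440. The share of calls that were higher was 61.4%, 52.3% after quantile normalization of the 8 MC38 arrays alone and 48.8% (59 higher, 62 lower) in the fit on the 4 Nrp1-deleted arrays. Over the other settings without omissions it was 55.3% to 68%. The 14 calls for the difference between hosts became 4 with 75th percentile centring, 26 with array weights, 6 with cyclic loess, 33 in a fit on the 8 arrays, 3 with the mean over probe sets, 2 with no intensity trend and 49 with quantile normalization of the 8 arrays, and ranged from 0 to 122 when 1 array was left out. The 1528 control calls became 2500 with array weights and 663 to 711 without 1 control array. A fit that leaves 1 array in a group assumes that it varies like the other groups. With the replicate block, 348 genes were called in Nrp1-deleted hosts, 12 for the difference and 1513 in control hosts. The replicate numbers share only a number: deviations of same-numbered arrays correlated at 0.136 in Nrp1-deleted and -0.011 in control hosts, over 2 pairs. Among single genes, Tgfbr2 alone reversed, at -0.15 with the highest-variance probe set (adjusted p = 0.913). The cause was not tested. Of the other values of single genes under the alternatives, 1117 kept their call and 342 kept only their direction. Of 57 list medians, 40 kept 1 sign under every alternative. Low values limit what is detectable, since no detection call came with them.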
